A study of Mus musculus with 6 samples.

Results

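Interferon-stimulated genes are the genes that cells switch on after an interferon binds its receptor. The 40 genes chosen here are well-known targets of type I and type II interferon, and 38 of the 40 had a probe set that names them alone in the platform annotation. The brightest such probe set stood for each gene. The other two, Isg15 and Ifi44, were not analysed here. Of the 38, 37 were bright enough over the 6 arrays to be tested, out of 13002 genes tested in all.

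The genes were measured in mammary gland RNA of female mice at 10 and at 5 weeks of age. Animals of both ages were bitransgenic, from a cross of the mouse line that the labels call LH with the MMTV-neu line, in which the mouse mammary tumour virus promoter drives the neu (Erbb2) oncogene in mammary epithelium. No group without the transgenes was compared, so age is the only difference examined. Each age had 3 arrays, each array held pooled RNA of 3 animals, and each probe set was reported as a linear signal intensity, with array medians of 156.4 to 172.5.

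Interferons signal through receptor-bound JAK kinases to STAT proteins. Type I interferons assemble STAT2 and IRF9 with a further STAT into a complex that binds interferon-stimulated response elements, while interferon gamma acts through STAT dimers at gamma-activated sites and through IRF1. The products include sensors of foreign nucleic acid, enzymes and binding proteins that block viral replication, GTPases that attack intracellular microbes, and proteins that present antigen. In mammary tissue, as in other organs, epithelial, stromal and immune cells can all respond to interferon.

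Promoter sequences of the members were searched for the response elements of both interferon types. A promoter window in RefSeq's GRCm38.p6 table was found for 27 of the 38 members, and the 250 bases before the transcription start were searched on both strands for the core of the response element, spelled GAAA, any 2 bases and GAAA again. They occurred in 11 of these 27 members, against 3.46% of all 27025 genes with a window. Among the members, 4 of 9 that were lower at 10 weeks held the letters, as did 0 of 5 that were higher and 7 of 13 that were not called. The letters of the gamma-activated site, TTC, any 3 bases and GAA, which read the same on both strands, occurred in 6 of the 27 members and in 8.13% of all genes. The 4 members shown are those with the largest differences among called members that hold the response element letters, and capitals mark those letters on either strand. A match is a description of the sequence and not evidence of a bound site.
Ifit3 (chr19:34583279-34583528, plus strand): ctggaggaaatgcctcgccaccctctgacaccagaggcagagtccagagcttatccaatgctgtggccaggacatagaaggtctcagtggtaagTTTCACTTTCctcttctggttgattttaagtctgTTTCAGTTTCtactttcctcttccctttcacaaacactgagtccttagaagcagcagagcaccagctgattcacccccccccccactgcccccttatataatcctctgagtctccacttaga
Oas3 (chr5:120777660-120777909, minus strand): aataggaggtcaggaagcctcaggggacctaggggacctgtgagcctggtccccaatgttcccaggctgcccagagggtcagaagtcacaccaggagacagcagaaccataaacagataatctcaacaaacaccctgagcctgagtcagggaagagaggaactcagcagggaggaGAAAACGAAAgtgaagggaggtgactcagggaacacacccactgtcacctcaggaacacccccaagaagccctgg
Ifit1 (chr19:34640639-34640888, plus strand): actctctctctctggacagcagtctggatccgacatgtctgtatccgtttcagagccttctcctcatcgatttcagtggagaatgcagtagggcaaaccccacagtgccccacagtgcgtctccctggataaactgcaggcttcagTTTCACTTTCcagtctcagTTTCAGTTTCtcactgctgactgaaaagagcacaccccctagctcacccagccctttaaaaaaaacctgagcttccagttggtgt
Oas1a (chr5:120907526-120907775, minus strand): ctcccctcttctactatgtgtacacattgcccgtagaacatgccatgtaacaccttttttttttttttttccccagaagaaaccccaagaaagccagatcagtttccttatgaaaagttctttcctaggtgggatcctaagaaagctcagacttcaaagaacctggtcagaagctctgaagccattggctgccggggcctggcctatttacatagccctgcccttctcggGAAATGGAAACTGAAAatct

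In Ifit3 the 2 matches began 156 and 122 bases before the start, and in Ifit1 they began 104 and 85 bases before it, each time on the strand opposite to the gene. Oas3 held 1 match, which began 75 bases before the start. The 2 overlapping matches of Oas1a began 20 and 14 bases before the start. All 4 genes encode antiviral proteins, and their values are given below with their families.

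At 10 weeks more members were lower than higher, and many were in neither set. By limma over all probe sets, at a Benjamini-Hochberg adjusted p of 0.05, 14 of the 37 tested members were lower, or 37.8%, where the share over all genes tested was 18.7%. Another 7 were higher, or 18.9%, which is near the 15.3% of all genes, and 16 did not pass the test. In whole-gland RNA, fewer cells of a type and less RNA per cell cannot be told apart. Either call was made for 56.8% of tested members and for 34.1% of all genes. The median log2 difference, 10 weeks minus 5 weeks, was -0.44 over the tested members and -0.004 over all genes tested. A difference of at least 1 on the log2 scale was reached by 9 lower members and 1 higher member, against 6.66% and 3.78% of all genes. Ido1 and Oas3, counted in both the 14 and the 9, were bright enough to be tested only through their 5-week signals. All 3 pools of 10 weeks lay below all 3 pools of 5 weeks in 16 tested members, where 26.3% of all genes did so, and above them in 8, where 24% of all genes did so.

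**Figure D1:**
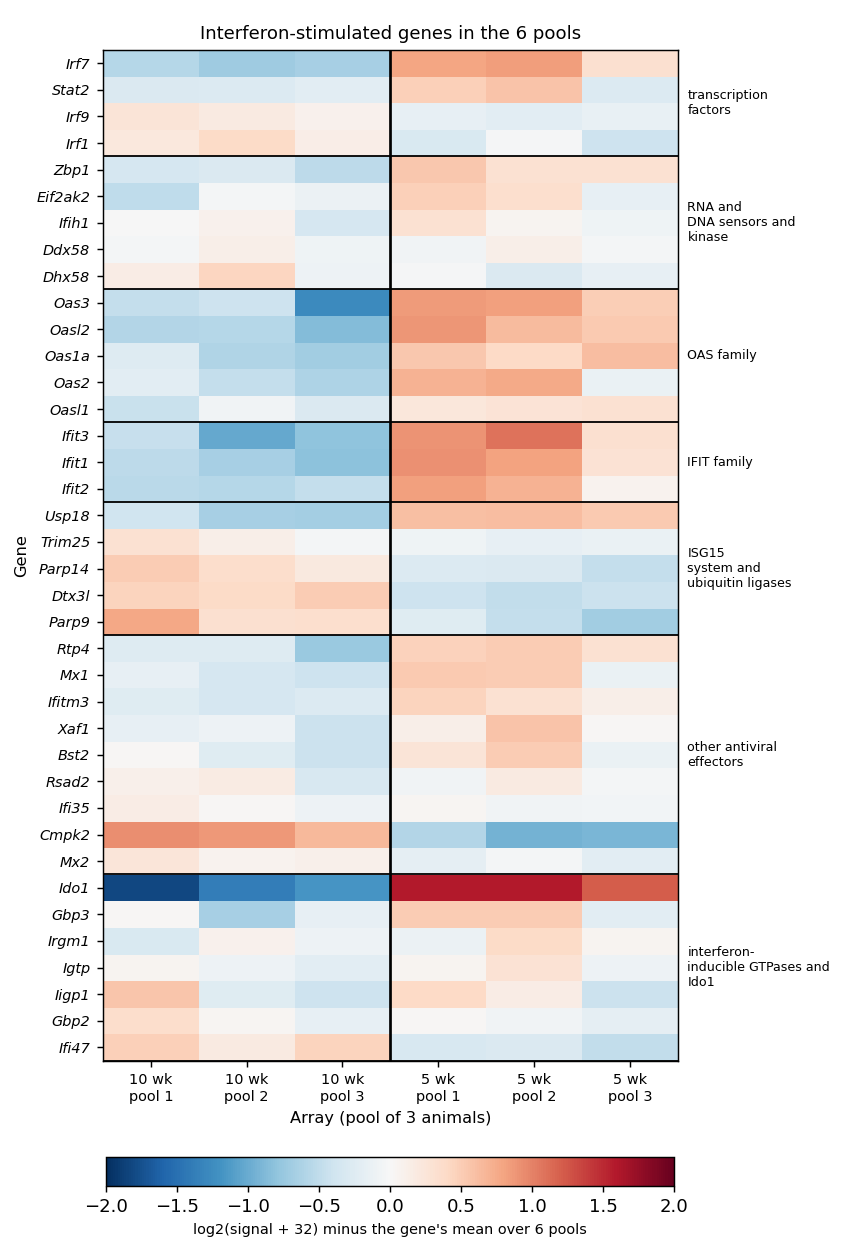
Heat map of the 38 measured genes (rows, by role) in the 6 pools (columns, 10 weeks at the left and 5 weeks at the right). Colour is log2(signal + 32) minus the mean of the gene over the 6 pools; the OAS and IFIT rows are blue at 10 weeks and red at 5 weeks, apart from a pale blue Oas2 in 5-week pool 3, while Cmpk2, Parp9, Dtx3l, Parp14 and Ifi47 show the opposite colours.

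Among the transcription factors, Irf7, the interferon-induced amplifier of type I interferon production, had signals of 567.5, 515.1 and 534.4 at 10 weeks and 1512.7, 1559.1 and 1088.7 at 5 weeks. Every 10-week pool lay below every 5-week pool. The log2 difference was -1.30 ± 0.15 (SE, adjusted p = 0.000429). Irf1, an early factor of the interferon gamma response, had signals of 2036.0, 2308.1 and 1931.0 at 10 weeks and 1420.0, 1733.8 and 1310.5 at 5 weeks. Its pools did not overlap either, in the opposite direction, with a log2 difference of 0.49 ± 0.13 (SE, adjusted p = 0.0216). Irf9, the DNA-binding subunit of the type I complex, had signals of 1304.3, 1231.2 and 1152.6 at 10 weeks and 962.7, 934.3 and 969.7 at 5 weeks, a rise of 0.35 ± 0.10 (SE, adjusted p = 0.0325). Over all alternatives the differences of Irf1 and Irf9 stayed at 0.40 to 0.60 and at 0.31 to 0.40. Their calls were near the threshold, and both were lost in some of the settings. That of Irf9 was lost without any 1 of 5 pools (adjusted p = 0.0568 to 0.104), all but 10-week pool 3, and with no variance trend (0.0527). That of Irf1 disappeared when 10-week pool 2 (0.0779), 5-week pool 1 (0.0644) or 5-week pool 3 (0.0636) was left out.

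Stat2, the partner of IRF9 in that complex, had signals of 367.4, 373.6 and 391.8 at 10 weeks and 650.3, 691.7 and 372.7 at 5 weeks. The third 5-week pool lay among the 10-week pools, and the log2 difference of -0.51 ± 0.21 (SE) missed the threshold (adjusted p = 0.106). A dimmer probe set of Stat2 was lower at 10 weeks (log2 difference -0.71 ± 0.21, adjusted p = 0.0346). Without 5-week pool 3 the brightest probe set was called as well, at -0.78 (adjusted p = 0.00553).

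In the group of 5 that holds 4 nucleic acid sensors and a kinase, 1 fell and none rose. Of all genes, 18.7% were lower and 15.3% higher. Zbp1, a sensor of left-handed nucleic acid that can trigger cell death, had signals of 202.6, 210.0 and 174.7 at 10 weeks and 395.3, 333.1 and 332.2 at 5 weeks. The pools did not overlap, and the log2 difference was -0.76 ± 0.15 (SE, adjusted p = 0.00605), or -1.25 when its probe sets were averaged. Ddx58, which encodes the RNA sensor RIG-I, had signals of 1275.5, 1418.9 and 1236.0 at 10 weeks and 1252.1, 1431.9 and 1275.7 at 5 weeks on its brightest probe set. These overlapped and differed by -0.01 ± 0.11 on the log2 scale (SE, adjusted p = 0.954). A dimmer Ddx58 probe set was lower at 10 weeks (-0.76 ± 0.15, adjusted p = 0.00547). Ifih1, the sensor MDA5 of long double-stranded RNA, differed by -0.17, and Eif2ak2, the kinase PKR that halts translation, by -0.44, or -0.21 with averaged probe sets. Neither passed the test. Dhx58, the regulator LGP2 of the other RNA sensors, gave 0.31 on its brightest probe set (adjusted p = 0.246). A second Dhx58 probe set gave -2.15 ± 0.19 (adjusted p = 0.000145), so no direction is given for this gene. That second probe set (mean 32.1 at 10 weeks, 255.4 at 5 weeks) was bright enough to be tested only through its 5-week signals.

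All 5 members of the OAS family fell, where 18.7% of all genes were lower. These genes encode oligoadenylate synthetases, which make the second messenger that activates an RNA-degrading enzyme, and their OASL relatives. Oasl2 had signals of 354.9, 359.1 and 287.0 at 10 weeks and 1038.2, 872.3 and 804.5 at 5 weeks, a log2 difference of -1.36 ± 0.15 (SE, adjusted p = 0.000318). Oas1a had signals of 668.8, 515.4 and 483.3 at 10 weeks and 1176.3, 1069.5 and 1253.9 at 5 weeks, a difference of -1.04 ± 0.14 (SE, adjusted p = 0.00103). In each of the 5 genes every 10-week pool lay below every 5-week pool, as in 26.3% of all genes. Oas3 had signals of 109.1, 114.9 and 48.6 at 10 weeks and 321.8, 315.3 and 243.2 at 5 weeks, a difference of -1.45 ± 0.25 (SE, adjusted p = 0.00318). Over the alternatives that tested Oas3, its difference ran from -1.77 to -1.06. Oas2 fell by 0.87 and Oasl1 fell by 0.54, and these calls were the least stable of the family. The Oas2 call disappeared when 10-week pool 2 (adjusted p = 0.0676), 10-week pool 3 (0.0795), 5-week pool 1 (0.0828) or 5-week pool 2 (0.0753) was left out. The Oasl1 call was lost without any 1 of the pools except 10-week pool 2 (0.0626 to 0.0955) and, by a small margin, with no filter (0.05004).

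The 3 measured IFIT genes, which encode proteins that bind foreign RNA and block its translation, fell as well. Of all genes, 18.7% were lower. Ifit3 had signals of 273.7, 174.7 and 208.8 at 10 weeks and 758.5, 865.1 and 494.2 at 5 weeks, a log2 difference of -1.54 ± 0.23 (SE, adjusted p = 0.00137). For Ifit1 the signals were 296.2, 263.7 and 235.5 at 10 weeks and 852.5, 790.0 and 546.4 at 5 weeks, a difference of -1.34 ± 0.18 (SE, adjusted p = 0.000948). The ages did not overlap in any of the 3 genes, and 5-week pool 3 was the lowest 5-week pool in each. All 3 pools of 10 weeks lay below all 3 pools of 5 weeks in 26.3% of all genes. For Ifit2 the signals were 148.7, 144.3 and 156.0 at 10 weeks and 429.6, 395.1 and 244.6 at 5 weeks, a difference of -1.06 ± 0.21 (SE, adjusted p = 0.00561).

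In the group of the ISG15 system and of ubiquitin ligases and ADP-ribosyltransferases, 3 of 5 tested members rose and 1 fell. Over all genes 15.3% were higher and 18.7% lower. Usp18, the protease that removes ISG15 and also damps the type I receptor, had signals of 347.8, 285.5 and 282.5 at 10 weeks and 728.4, 740.1 and 689.9 at 5 weeks. Its log2 difference was -1.16 ± 0.13 (SE, adjusted p = 0.000397). Dtx3l, a ubiquitin ligase, had signals of 3061.3, 2923.7 and 3212.5 at 10 weeks and 1679.5, 1575.0 and 1645.6 at 5 weeks, a difference of 0.89 ± 0.09 (SE, adjusted p = 0.000247). Its partner Parp9 had signals of 4389.1, 3211.0 and 3212.9 at 10 weeks and 2144.5, 1816.6 and 1556.6 at 5 weeks, a difference of 0.95 ± 0.16 (SE, adjusted p = 0.00244). In each of these 3 genes the ages did not overlap. Parp14, a further ADP-ribosyltransferase, had signals of 1828.8, 1636.5 and 1466.4 at 10 weeks and 1056.0, 1039.0 and 907.5 at 5 weeks, a difference of 0.70 ± 0.12 (SE, adjusted p = 0.00309). Averaging it with its dim second probe set, which gave -0.01, ended that call (0.34, adjusted p = 0.169). Trim25, the ubiquitin ligase that acts on RIG-I, had signals of 2628.5, 2299.8 and 2061.1 at 10 weeks and 1981.4, 1873.0 and 1918.0 at 5 weeks. Its 10-week pools all lay above the 5-week pools, but the difference of 0.27 ± 0.11 (SE) missed the threshold (adjusted p = 0.106), and it was called when its probe sets were averaged (0.30, adjusted p = 0.0361).

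**Figure D2:**
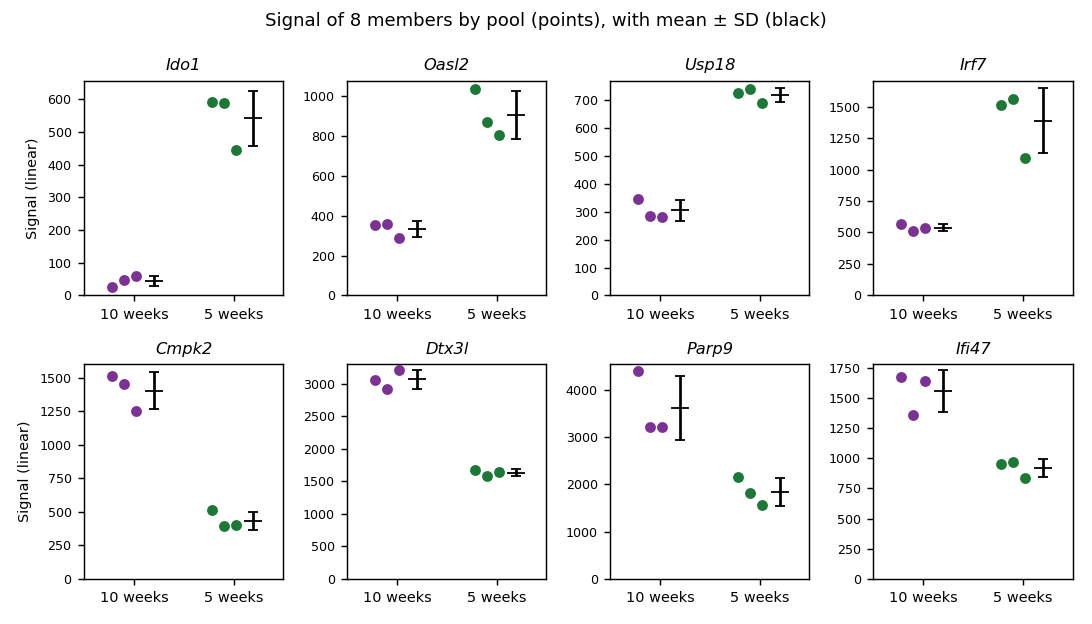
Signal of 8 members on a linear scale, with 1 point per pool at 10 weeks (purple) and at 5 weeks (green) and the mean ± SD in black. The 4 genes with the smallest adjusted p in each direction are shown; the 3 points of 1 age lie apart from the 3 of the other in every panel, and Ido1 stays between 26.3 and 58.9 at 10 weeks.

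Among the other antiviral effectors, 2 of 8 tested members fell and 1 rose, where 18.7% of all genes were lower and 15.3% higher. Cmpk2, a mitochondrial nucleotide kinase, had signals of 1514.0, 1451.7 and 1252.9 at 10 weeks and 513.1, 393.0 and 399.7 at 5 weeks. Its log2 difference of 1.63 ± 0.14 (SE, adjusted p = 0.00012) was the largest increase among the tested members, and its second probe set also rose (1.20 ± 0.16, adjusted p = 0.000797). Ifitm3, a membrane protein that stops virus entry, had signals of 7468.9, 7023.7 and 7300.9 at 10 weeks and 12013.8, 10962.1 and 9576.1 at 5 weeks, a difference of -0.57 ± 0.10 (SE, adjusted p = 0.00312). For Rtp4, a receptor chaperone that interferon induces, the signals were 1442.4, 1438.2 and 1015.2 at 10 weeks and 2377.9, 2471.6 and 2128.6 at 5 weeks, a difference of -0.84 ± 0.15 (SE, adjusted p = 0.00334). The ages did not overlap in any of these 3 genes.

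The remaining effectors did not pass the test. Ifi35 had signals of 3489.3, 3200.5 and 2951.1 at 10 weeks and 3254.8, 3000.7 and 3049.8 at 5 weeks on its brightest probe set, a log2 difference of 0.05 ± 0.10 (SE, adjusted p = 0.75). Its 2 dimmer probe sets were called in opposite directions, at 0.43 (adjusted p = 0.0369) and -0.41 (adjusted p = 0.0212). Rsad2, which encodes the antiviral enzyme viperin, differed by -0.05 and overlapped between the ages. Mx1, a dynamin-like GTPase that traps viral particles, differed by -0.61 (adjusted p = 0.0678), Xaf1, a promoter of cell death, by -0.47 (0.0631) and Bst2, the tether of budding virus, by -0.43 (0.118). The third 5-week pool was the lowest of its age in these 3 genes, and without it each was called (adjusted p = 0.0196, 0.0481 and 0.0389). A second Xaf1 probe set gave 0.29, and the average of both was -0.087 (adjusted p = 0.701). Mx2 was too dim to be tested, with signals of 35.5, 27.9 and 28.9 at 10 weeks and between 17.2 and 23.3 at 5 weeks.

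In the group of 7 that holds the interferon-inducible GTPases and Ido1, 1 fell and 1 rose, against 18.7% and 15.3% of all genes. Ido1, the enzyme that breaks down tryptophan, had signals of 26.3, 46.7 and 58.9 at 10 weeks and 589.9, 589.4 and 443.7 at 5 weeks. Its log2 difference of -2.93 ± 0.21 (SE, adjusted p = 5.74e-05) was the largest among the tested members. Because the 10-week signals are near the bottom of the range, its size varies with the constant that precedes the logarithm: -3.65 with a constant of 1 and -2.15 with 100. Ifi47, a GTPase of the IRG family, had signals of 1673.6, 1355.8 and 1642.7 at 10 weeks and 953.4, 968.0 and 837.7 at 5 weeks, a difference of 0.74 ± 0.12 (SE, adjusted p = 0.00251). Iigp1, a further IRG GTPase, had signals of 3784.1, 2151.6 and 1905.2 at 10 weeks and 3384.8, 2847.3 and 1888.8 at 5 weeks. These overlapped and missed the threshold (-0.08 ± 0.27 SE, adjusted p = 0.864). Gbp2 (0.15), Igtp (-0.16) and Irgm1 (-0.22) did not pass either. Gbp3, at -0.54 (adjusted p = 0.124), passed without 5-week pool 3 (-0.78, adjusted p = 0.0322).

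**Figure D3:**
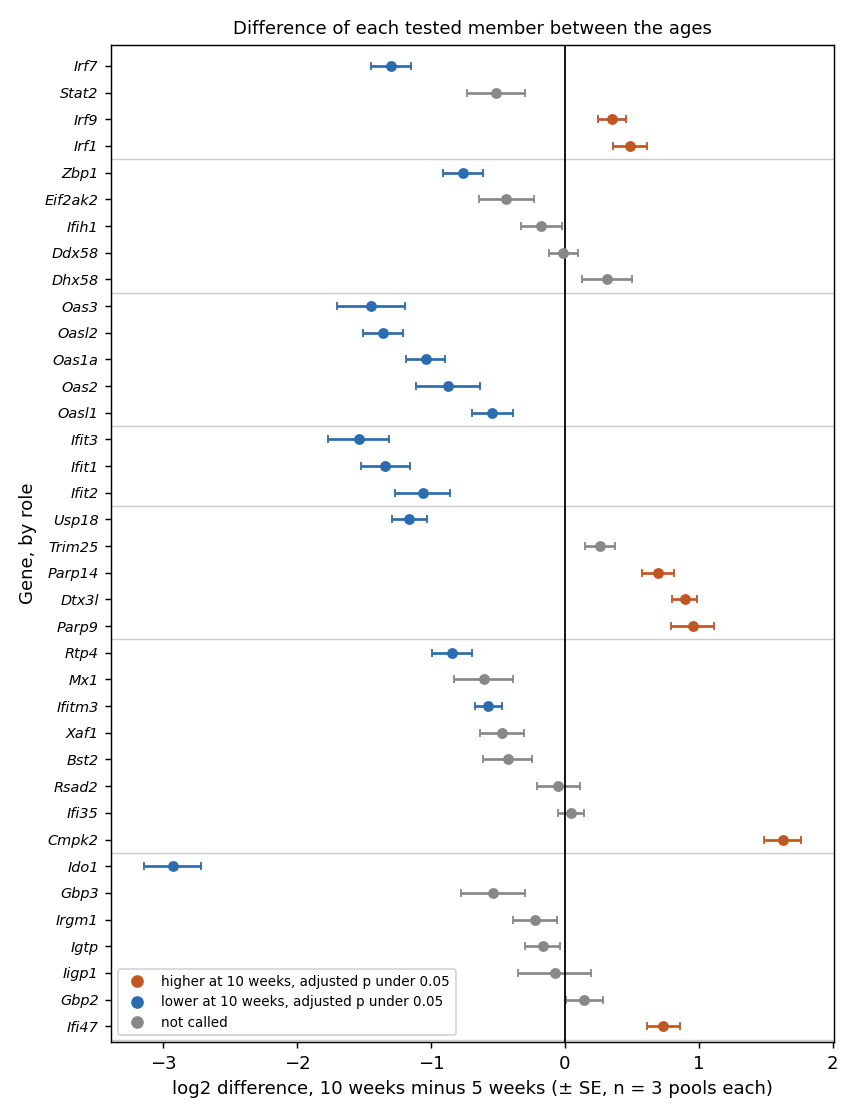
The log2 difference, 10 weeks minus 5 weeks, of the 37 tested members with its standard error (n = 3 pools each), ordered by role. The 14 members called lower include the whole OAS and IFIT groups, and the 7 called higher include Cmpk2, Parp9, Dtx3l, Parp14 and Ifi47.

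Members that lie side by side on a chromosome did not always share a call. In the RefSeq gene order, Parp14, Dtx3l and Parp9 are adjacent on chromosome 16 and all rose. Oas2 and Oas3, as well as Oasl2 and Oasl1, are adjacent on chromosome 5, and Ifit2 and Ifit3 are adjacent on chromosome 19; all of these fell. Rsad2 and Cmpk2 are adjacent on chromosome 12, and their differences were -0.05 and 1.63. The difference between these adjacent genes was not tested.

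Agreement between probe sets was mixed. Of 55 tested probe sets of the members 29 were called in either direction, where 28.8% of all probe sets were. Several probe sets were tested for 13 members, and in 8 of these all had the same sign. The other 5 were Dhx58, Ifi35, Parp14, Rsad2 and Xaf1. Ifi35 alone was called in both directions. Which transcripts these probe sets detect was not examined.

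The pools of 1 age also differed from each other. The mean of log2(signal + 32) over the 38 measured members was 9.46, 9.38 and 9.25 at 10 weeks and 9.82, 9.82 and 9.53 at 5 weeks. The third 5-week pool was the lowest of its age for 12 of the 14 lower members, whereas it was the lowest for 32.4% of all genes tested. It was also the lowest for 4 of the 7 higher members and 10 of the 16 not called. The third 10-week pool was the lowest of its age for 8 of the 14 lower, 4 of the 7 higher and 12 of the 16 not called. For all genes tested its share was 33.9%. Over the 14 lower members the means were 8.62, 8.55 and 8.42 at 10 weeks and 9.86, 9.81 and 9.50 at 5 weeks. These members were chosen by their calls in the same arrays, so the gap between the ages in these means adds no support. Without 5-week pool 3 the count of lower members was 19, where 15.15% of all genes were lower. Stat2, Eif2ak2, Mx1, Xaf1, Bst2 and Gbp3 then joined, and Oasl1 left. Over the 7 higher members, likewise chosen by their calls, the means were 11.04, 10.91 and 10.87 at 10 weeks and 10.20, 10.14 and 10.01 at 5 weeks.

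Other genes of the interferon pathway were described with 8 lists of 98 tested genes in all, of which 24 were lower and 24 higher at 10 weeks, or 24.5% each way, where 18.7% of all genes were lower and 15.3% higher. The count of 24 higher became 15 without 10-week pool 1 and 14 without 10-week pool 2. The share of all genes called higher also fell when any 1 pool was left out, from 15.3% to between 10.88% and 13.43%. Of 9 interferon genes measured, 8 were too dim to be tested. The ninth, Ifnb1, had signals of 158.2, 185.0 and 92.2 at 10 weeks and 102.3, 112.1 and 89.9 at 5 weeks, and its difference missed the threshold (0.37 ± 0.23 SE, adjusted p = 0.266).

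Of 6 receptor genes, 3 rose and 1 fell, where 15.3% of all genes were higher and 18.7% lower. The 2 chains of the type I receptor were called in opposite directions. Ifnar1 had signals of 443.4, 401.6 and 414.2 at 10 weeks and 668.6, 704.9 and 817.5 at 5 weeks, a log2 difference of -0.75 ± 0.13 (SE, adjusted p = 0.00283). Its second probe set gave -0.17 (adjusted p = 0.482), and the average of both was -0.46 (adjusted p = 0.0194). Ifnar2 had signals of 1845.4, 2126.0 and 2154.5 at 10 weeks and 1457.7, 1573.4 and 1572.4 at 5 weeks, a difference of 0.40 ± 0.10 (SE, adjusted p = 0.0193). Averaging its probe sets ended the Ifnar2 call (0.11, adjusted p = 0.404), and it was also lost without 10-week pool 2 (0.0674), 10-week pool 3 (0.0678) or 5-week pool 1 (0.0635). Ifnlr1, the type III interferon receptor chain, rose by 0.77 ± 0.24 (SE, adjusted p = 0.0434), and this was lost without any 1 of the pools except 5-week pool 3 (0.0635 to 0.125), with no filter (0.0762) and with no variance trend (0.0575). Without 5-week pool 2, where its signal was lowest, the difference was 0.48.

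In the JAK-STAT list 3 of 11 tested genes rose and 1 fell, or 27.3% and 9.09%, against 15.3% and 18.7% of all genes. Jak1, the kinase shared by interferon receptors, had signals of 3272.3, 3109.0 and 3551.7 at 10 weeks and 4512.9, 4510.0 and 4777.1 at 5 weeks, a log2 difference of -0.47 ± 0.09 (SE, adjusted p = 0.00502). The dimmer Jak1 probe sets gave -0.21 and -0.33 and were not called, and the average of all was -0.34 (adjusted p = 0.0445). Ptpn2, a phosphatase that switches JAK and STAT proteins off, rose by 0.63 ± 0.15 (SE, adjusted p = 0.0142). Stat3 rose by 0.47 ± 0.16 (SE, adjusted p = 0.0496), a call on its brightest probe set that was lost without any 1 of 5 pools (0.0999 to 0.127), all but 10-week pool 3. It was also lost in 5 settings that kept all pools (0.0511 to 0.0895). Without 10-week pool 1 the difference was 0.30. A slightly dimmer Stat3 probe set rose by 0.78 ± 0.11 (SE, adjusted p = 0.00118), another rose by 0.54 (0.0477), the dimmest gave 0.21 (0.475), and the average of all rose by 0.50 (0.0232).

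Of 16 upstream sensing genes, 4 rose and 3 fell, or 25% and 18.75%, against 15.3% and 18.7% of all genes. Tlr3, the endosomal sensor of double-stranded RNA, had signals of 1094.1, 917.8 and 995.6 at 10 weeks and 429.0, 324.8 and 417.7 at 5 weeks, a log2 difference of 1.30 ± 0.14 (SE, adjusted p = 0.000337). Traf6, a ubiquitin ligase of Toll-like receptor signalling, rose by 0.68 (adjusted p = 0.00502). A dimmer Traf6 probe set rose by 0.995 (adjusted p = 0.009), while others gave 0.38 and 0.55 and were not called. Trim56 fell by 0.60 (adjusted p = 0.0137). Ikbke, a kinase that activates interferon regulatory factors, fell by 0.88 (0.032), a call that disappeared with no filter (0.0658) or when 10-week pool 1 (0.0659), 10-week pool 2 (0.0924), 5-week pool 1 (0.0827) or 5-week pool 2 (0.0965) was left out. Of the 3 other interferon regulatory factors tested, Irf4, a factor of lymphocytes and some myeloid cells, fell. Its signals were 160.0, 167.0 and 151.7 at 10 weeks and 571.0, 498.5 and 686.0 at 5 weeks, a difference of -1.68 ± 0.16 (SE, adjusted p = 0.000165).

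Among 36 further interferon-induced genes outside the members, 17 fell and 6 rose, with a median log2 difference of -0.37. These are 47.2% and 16.7% of the list, against 18.7% and 15.3% of all genes. Slfn5, of the Schlafen family, had signals of 218.0, 220.9 and 200.2 at 10 weeks and 465.0, 884.8 and 907.5 at 5 weeks, a difference of -1.62 ± 0.24 (SE, adjusted p = 0.00131). Its other probe sets gave -0.48 and -0.43 and were not called, and the average over its probe sets was -0.84 (adjusted p = 0.00284). Ifi204, of the DNA-sensing PYHIN family, fell by 1.35 (adjusted p = 0.0014). Ifi204 (mean 71.0 at 10 weeks, 235.4 at 5 weeks) was bright enough to be tested only through its 5-week signals. The same held for Slfn4 (91.0, against 283.6), which is also counted among the 17. Ifi30, a thiol reductase that prepares antigens, had signals of 5835.9, 5119.1 and 5640.5 at 10 weeks and 2893.5, 3067.3 and 2634.5 at 5 weeks, a difference of 0.94 ± 0.10 (SE, adjusted p = 0.000269). Trim21, an antibody receptor of the cytosol, rose by 0.88 (adjusted p = 0.00113).

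Antigen presentation was covered by a class I and a class II list. In the MHC class I list 3 of 13 tested genes rose and 1 fell, with a median of 0.24; these are 23.1% and 7.69%, against 15.3% and 18.7% of all genes. In the class II list 4 of 7 rose, or 57.1%, and none fell, with a median of 0.44. Tap2, a subunit of the peptide transporter, had signals of 2167.8, 2218.8 and 2228.4 at 10 weeks and 1394.7, 1340.1 and 1326.2 at 5 weeks, a log2 difference of 0.69 ± 0.09 (SE, adjusted p = 0.000798). Psmb9, an immunoproteasome subunit, rose by 0.44 (adjusted p = 0.039), a call lost without any 1 of the pools except 10-week pool 3 (0.0678 to 0.126) and in 3 settings that kept all pools (0.0538 to 0.0653). H2-T24, a class I-like gene, had signals of 53.7, 48.8 and 103.7 at 10 weeks and 211.2, 257.2 and 269.4 at 5 weeks and fell (adjusted p = 0.00174). H2-T24 was bright enough to be tested only through its 5-week signals. The class II genes H2-Eb1 and H2-Ab1 rose by 0.69 and 0.66 (adjusted p = 0.0063 and 0.00346), and averaging its probe sets ended the H2-Ab1 call (0.37, adjusted p = 0.0843). Of 5 tested interferon-induced chemokine genes, 1 rose, or 20%, which was Cxcl16 (0.92 ± 0.15 SE, adjusted p = 0.00243).

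**Figure D4:**
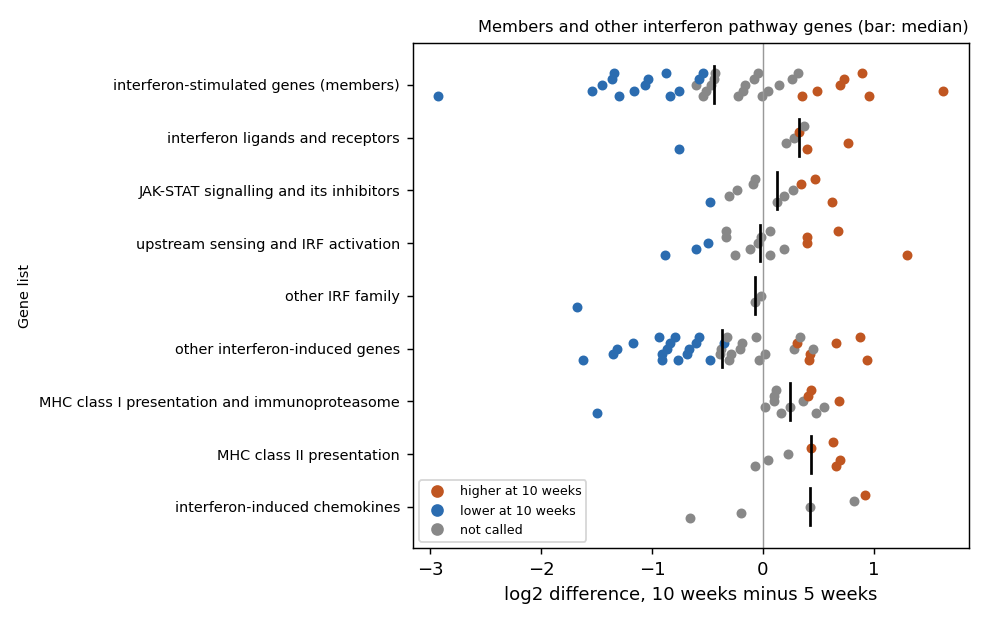
The log2 difference, 10 weeks minus 5 weeks, of the 37 tested members (top row) and of 8 lists of other interferon pathway genes, 1 point per gene, with the list median as a bar. The medians are -0.44 for the members and -0.37 for the other interferon-induced genes, and 0.24 and 0.44 for the class I and class II presentation lists.

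Markers of the cell types in the gland also differed between the ages, where 18.7% of all genes were lower and 15.3% higher. Of 9 epithelial markers, which check the mammary label, 4 rose, with a summed signal of 67820 to 77887 at 10 weeks and 48570 to 57934 at 5 weeks. Endothelial markers fell in 7 of 8 (4427 to 5352 at 10 weeks, 7776 to 8956 at 5 weeks) and fibroblast markers in 6 of 7 (49332 to 53019, against 70522 to 83942). Adipocyte markers fell in 4 of 6 tested (31484 to 40056, against 41753 to 54052). Skeletal muscle markers fell in 4 of 10, and 10-week pool 1 stood apart, with sums of 6204, 46542 and 43005 at 10 weeks and 100994, 56218 and 109295 at 5 weeks. Without that pool there were 13 lower and 6 higher members, where 14.26% of all genes were lower and 10.88% higher. Of 11 macrophage markers, 3 fell and 2 rose (21978 to 23252, against 26000 to 29214). Of 6 tested dendritic cell markers, 2 fell and 1 rose (2842 to 3134, against 3728 to 4899). The brightest, Tcf4, fell (mean 1383 at 10 weeks, 2736 at 5 weeks), as did Zbtb46 (301.9, against 458.6). Itgax rose (632.5, against 272.0), so the sum mostly follows Tcf4.

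Lymphocyte markers varied mostly among the 5-week pools. The summed signal of 6 B cell markers, of which none of the 5 tested was called, was 448.0 to 1068 at 10 weeks and 520.6 to 3063 at 5 weeks, and that of 10 T and NK cell markers was 2159 to 2472 at 10 weeks and 1214 to 3561 at 5 weeks. Both were highest in 5-week pool 2. Of 7 tested T and NK cell markers 2 rose, and without 5-week pool 2 there were 12 lower and 6 higher members, where 15.72% of all genes were lower and 12.73% higher. Of 5 plasma cell markers 2 rose and 1 fell (5918 to 8157, against 4739 to 4848). Igha rose (mean 3646 at 10 weeks, 398.3 at 5 weeks), as did Jchain (1356, against 324.5). Sdc1, which made up most of the 5-week sum, fell (2006, against 3653). Of 3 tested neutrophil markers 1 rose (1105 to 1319, against 679.1 to 846.3). No marker of these lists was listed at 0 in any pool. The part of these cell types in the differences of the members was not tested.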

How the data were processed

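Total RNA of mammary gland, labelled with biotinylated UTP per the labels, was hybridised to 6 arrays, 3 per age, each with RNA of 3 animals pooled per the series' design text. Each probe set has 1 deposited intensity on a linear scale. Tested on the values, every array has a mean of 500 once its top and bottom 2% are trimmed. The algorithm and any detection call: not given in the sources used here. Precision is limited by the number of arrays. Replicate numbers follow accession order and pair no pools.

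Of 45101 probe sets, 64 controls were left out. Values under 1 were set to 1, and the scale log2(value + 32) shrinks differences of dim genes. On it the medians of the arrays spanned 0.118, and arrays were not normalized again. A filter then removed the dimmest 40% by mean over both ages, which left 27022. A member that is bright at 1 age only can pass this filter, as Ido1 and Oas3 did. Their mean signals were 44.0 and 90.9 at 10 weeks, and 541.0 and 293.4 at 5 weeks. Ifi204, Slfn4 and H2-T24 of the pathway lists, counted among the 24 lower genes, passed in the same way. Age was tested, two-sided, by limma (3.58.1, under R 4.3.3; lmFit, then eBayes allowing a variance trend) on 4 residual degrees of freedom, with Benjamini-Hochberg adjustment over all probe sets tested. The brightest probe set stood for a gene, by platform symbol. In the other lists a symbol that the platform lacks was matched by gene identifier through RefSeq GRCm38.p6. The fit was tested on simulated data. Alternatives changed the offset (1 and 100), the filter (none and 60%), the normalization, the variance model, array weights and the probe sets of a gene, and left out each pool in turn.

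The members, the lists and the tests were chosen with earlier results of these data known. Every member is named, and signals are given by role for the up to 3 called members with the smallest adjusted p, those called the other way and the brightest not called. From each pathway list the 2 largest calls in each direction are named. Ifnb1 was added after its values were seen. Promoters are those of up to 4 called members with the largest difference and the response element letters. Python 3.11.15 was used for summaries, with matplotlib 3.10.9 for plots.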

Additional observations from a re-analysis of the deposited data

How the results depend on the processing

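Among the 21 called members, 16 kept their call under each of the 15 alternatives that tested them, 12 lower and 4 higher; the other 5 were Irf1, Irf9, Oas2, Oasl1 and Parp14. Across the settings that kept all pools, the count of lower members ran from 11, with a 60% filter, to 15, and that of higher members from 6 to 7. In these settings 12.3% to 21.26% of all genes were lower, the most with the 60% filter, which left 32 members to test. From 10.23% to 18.33% were higher. Leaving out 1 pool gave 12 to 19 lower and 5 to 7 higher members, and a median log2 difference of -0.58 to -0.30, against -0.44 with all pools. Of all genes, 14.26% to 15.72% were then lower and 10.88% to 13.43% higher. The highest count and the lowest median came without 5-week pool 3, and the median nearest to 0 without 5-week pool 2. For the 8 pathway lists, leaving out 1 pool gave 19 to 23 lower and 14 to 22 higher genes. With no variance trend 15 were higher, against 24, where 13.9% of all genes were higher, against 15.3%. The cause was not tested. Of 21 named pathway genes, 15 kept their call under every alternative that tested them.

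Sign changes occurred in 5 members that were not called. Leaving out 1 pool gave Ddx58 -0.068 to 0.048, Ifi35 -0.012 to 0.11, Iigp1 -0.37 to 0.12 and Rsad2 -0.14 to 0.10. Rsad2 was also 0.028 with quantile normalization and 0.13 with averaged probe sets, and Dhx58 was -0.81 with averaged probe sets (adjusted p = 0.00794). No paired analysis was possible because the replicate numbers follow accession order and the labels pair no pools.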
